A study of Mus musculus with 30 samples.

Results

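Interferon-stimulated genes are the genes that cells switch on when they sense interferon. A set of 39 mouse genes of this kind was followed here across bulk RNA-seq libraries of mouse colon. They were chosen by symbol from general knowledge of the interferon response, but with earlier results of these data known. All 39 were found among the 31023 genes of the table. All 39 were also among the 19558 genes that passed the filter on low counts and were tested. The male C57BL/6 mice were aged 8 to 12 weeks and either WT or carriers of a deletion of Smox (Smox-/-, called Smox below), the gene of spermine oxidase, which turns spermine into spermidine and gives off hydrogen peroxide. The 10 groups held 3 libraries each. Tumors were taken from Smox mice given AOM-DSS (Smox AOM T) and from WT mice given AOM-DSS and spermidine (WT AOM Spd T). Non-tumor colon came from AOM-DSS with spermidine (AOM Spd NT), AOM-DSS alone (AOM NT), spermidine alone (Spd) and no treatment (untreated), each in Smox and in WT mice. AOM-DSS was 12.5 mg/kg of the carcinogen azoxymethane by injection, followed by 3 cycles of 5 days of 4% dextran sulfate sodium, a colitis agent, from days 5, 26 and 47. Spermidine was given at 14 mM in drinking water for 56 days. The deletion is as labelled, and the labels do not say which exons it removes. Smox itself had 18.6 to 68.7 CPM (a gene's count relative to its library's scaled total; median 28.7, n = 15) in libraries labelled Smox and 25.1 to 169 CPM (median 48.2, n = 15) in libraries labelled WT. Those ranges overlap, so the level of this transcript does not sort the libraries by genotype.

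Type I and type III interferons act through a complex that holds Stat2 and Irf9 and binds the interferon-stimulated response element (ISRE) in promoters. Interferon-gamma acts at another element, the gamma-activated site (GAS). The products of the responding genes sense viral RNA, degrade it, block its translation or attack microbes inside cells. In the gut, epithelial cells and immune cells of the lamina propria both respond.

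Promoters of some genes that carry the results below, picked because they hold an ISRE or GAS core, are shown to let a reader compare these elements. RefSeq promoter windows on GRCm38.p6, from 250 bases before to 50 bases after the start of each gene, were matched for 29 of the 39 genes. The ISRE core was searched as GAAANNGAAA and the GAS core as TTCNNNGAA, each on both strands. The ISRE core stood in 18 of the 29 windows (62.1%), against 1079 of the 27025 windows of all genes (3.99%). The GAS core stood in 8 of the 29 (27.6%), against 2582 of all genes (9.55%). By role, the ISRE core was in all 5 GTPase genes that were matched, 3 of 5 genes of the oligoadenylate synthetase (OAS) family and 1 of 4 transcription factor genes. Irf7, Irf9, Cmpk2, Oasl2 and Herc6, which also carry results, had matched windows without it. In Ifih1, Ddx58 and Eif2ak2 it lay only after the start of the gene. No window was matched for Dhx58, Zbp1, Oas2, Mx1, Mx2, Usp18, Iigp1, Rtp4, Parp14 and Ido1. A match describes these letters only and is not evidence of binding. Each stretch runs 5′ to 3′ along the gene's own strand, and capitals mark the ISRE core copies, which overlap in Isg15, Oas1a, Oas1g and Gbp3.
Isg15 (chr4:156200855-156200916, minus strand): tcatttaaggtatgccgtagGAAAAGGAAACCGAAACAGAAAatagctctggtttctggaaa
Ifit1 (chr19:34640765-34640833, plus strand): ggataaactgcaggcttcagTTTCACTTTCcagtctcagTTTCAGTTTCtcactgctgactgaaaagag
Ifit3 (chr19:34583353-34583436, plus strand): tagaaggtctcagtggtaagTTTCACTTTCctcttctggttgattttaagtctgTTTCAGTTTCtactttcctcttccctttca
Oas1a (chr5:120907526-120907565, minus strand): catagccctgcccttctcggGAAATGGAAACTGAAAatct
Oas1g (chr5:120887614-120887651, minus strand): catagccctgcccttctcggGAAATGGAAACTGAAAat
Oas3 (chr5:120777705-120777754, minus strand): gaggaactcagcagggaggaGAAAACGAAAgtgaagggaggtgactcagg
Trim30a (chr7:104465200-104465249, minus strand): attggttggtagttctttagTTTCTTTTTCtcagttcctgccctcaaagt
Gbp3 (chr3:142559979-142560025, plus strand): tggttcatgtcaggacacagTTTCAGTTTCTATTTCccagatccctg
In Irf1, an early target of interferon-gamma, the capitals mark a GAS core instead.
Irf1 (chr11:53769909-53769947, plus strand): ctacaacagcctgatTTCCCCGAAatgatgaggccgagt
The printed stretches of Oas1a and Oas1g are the same over the 38 bases they share. These genes are neighbours, 8643 bases apart on chromosome 5, and if their transcripts share reads, the counts of each rest on how the counting tool divided them. Other members also stand beside relatives of their family, such as Ifit2 and Ifit3, 7112 bases apart on chromosome 19, and Gbp3 and Gbp7, 9877 bases apart on chromosome 3. The likeness of these transcripts was not measured here, so values of single genes within such families carry that uncertainty.

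The total estimated count per library was 33060607 to 81011304, and 3 was the lowest count of any of the 39 genes in any library (Oas2, in replicate 1 of WT AOM NT). Some libraries stood apart. Replicate 3 of WT untreated had the highest CPM of all 30 libraries for 22 of the 39 genes. The same library had 6732 CPM of summed skeletal muscle markers, against 28.9 and 35.7 CPM in the other replicates, and 11.8 CPM of distal hindgut position genes, against 673 and 737 CPM. Its mitochondrial share was 21.7%, against 8.42% and 6.95%. Replicate 1 of WT AOM NT was the lowest of the 30 libraries for 20 of the 39 genes. Replicate 3 of Smox AOM NT was the highest of its group for 37 genes, and replicate 3 of Smox Spd the lowest of its group for all 39. Replicate 1 of Smox Spd was the highest of its group for 38 genes. It had 1105 CPM of summed skeletal muscle markers, against 18.8 and 35.2 CPM in the other replicates. Its leukocyte markers summed to 379 CPM, against 31.0 and 28.5 CPM, and its T and NK cell markers to 155 CPM, against 26.0 and 8.83 CPM. Because tissue was sequenced whole, fewer cells of a type and less RNA per cell cannot be told apart in any of the values.

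Across the colon libraries the 39 genes covered a wide span of levels. On a per-length scale (mean CPM per kb of exon over 30 libraries), Irf1 stood at 48.2, Oas1a at 41.2, Irf7 at 38.7, Isg15 at 32.1 and Gbp2 at 24.0. Irf1 and Irf7 are transcription factors, Oas1a makes the messenger that activates RNase L, Isg15 is a ubiquitin-like protein and Gbp2 a GTPase that attacks vacuoles of microbes. At the low end were Ifi44 at 0.776, Mx1 at 0.679 and Mx2 at 0.464 CPM per kb. The Mx GTPases block influenza and related viruses, and most inbred strains, C57BL/6 among them, carry a defective Mx1. The mean log2 CPM over the 39 genes was 3.44 ± 0.89 in Smox AOM T, 3.75 ± 0.63 in Smox AOM Spd NT, 3.46 ± 0.99 in Smox AOM NT, 4.60 ± 1.16 in Smox Spd and 4.91 ± 0.59 in Smox untreated (SD, n = 3 each). It was 2.89 ± 0.45 in WT AOM Spd T, 4.78 ± 0.49 in WT AOM Spd NT, 3.13 ± 0.96 in WT AOM NT, 5.01 ± 0.43 in WT Spd and 4.45 ± 1.16 in WT untreated (SD, n = 3 each). WT AOM Spd T was the group with the lowest mean CPM for 23 of the 39 genes and WT AOM NT for 10. WT Spd was the group with the highest mean for 16 genes and WT untreated for 10.

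**Figure D1:**
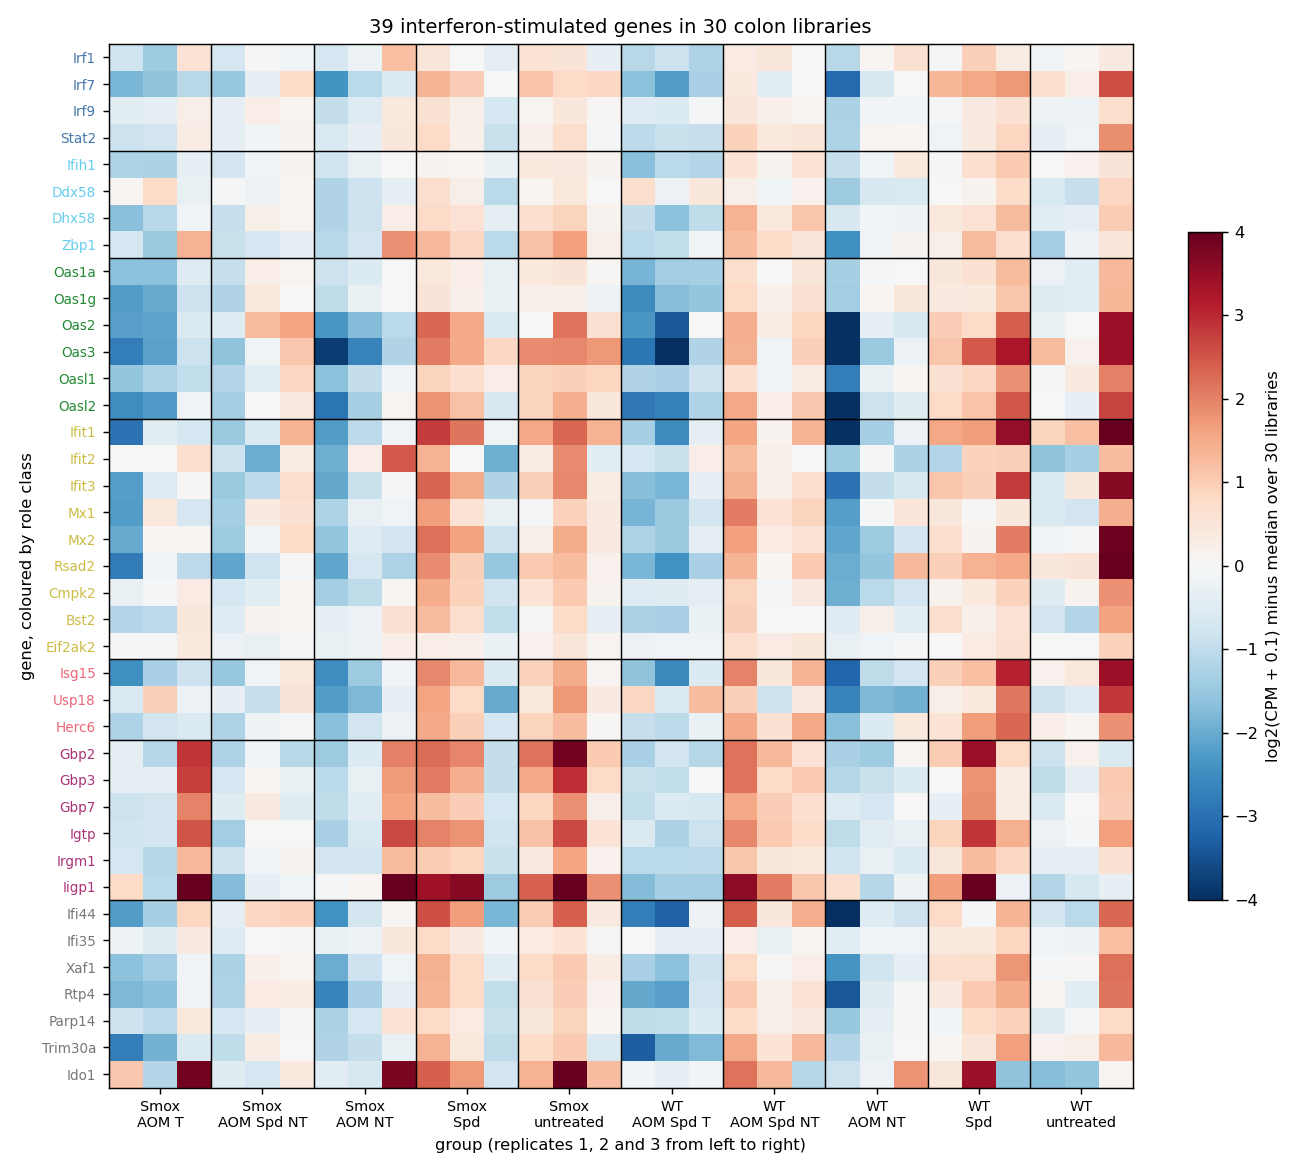
Level of each of the 39 genes (rows, by role) in each library (columns, by group), as log2(CPM + 0.1) minus the gene's median over 30 libraries, with colours limited at 4 on either side. Replicate 3 of WT untreated is the highest library for 22 genes and replicate 1 of WT AOM NT the lowest for 20.

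The genes did not move as a single block. The mean log2 CPM of the 6 OAS genes reached 7.07 in replicate 3 of WT untreated and 6.77 in replicate 3 of WT Spd, while the mean of the 6 GTPase genes (Gbp2, Gbp3, Gbp7, Igtp, Irgm1 and Iigp1) was 4.35 in each of these libraries. The GTPase mean was instead at 6.74 in replicate 2 of Smox untreated, 6.52 in replicate 3 of Smox AOM T, 6.50 in replicate 2 of WT Spd and 6.02 in replicate 3 of Smox AOM NT. In replicate 3 of Smox AOM T and of Smox AOM NT the OAS mean was 4.04 and 4.30. The GTPases are classical targets of interferon-gamma, and Ifng was the interferon gene with enough counts to be tested. Ifng had 0.132, 0 and 0.952 CPM in Smox AOM T, 0.0510, 0 and 0.431 CPM in Smox AOM NT, 0.119, 0.817 and 0.0644 CPM in Smox untreated and 0.0547, 0.123 and 0 CPM in WT Spd. Its highest value in each of these groups was in the same replicate as the high GTPase mean. The groups were picked for those high means, and the Ifng values are low, 0 in some libraries and at most 0.952 CPM. The match therefore does not measure whether Ifng and the GTPases move together. The part of Ifng or of the cells that make it in these levels was not tested.

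**Figure D2:**
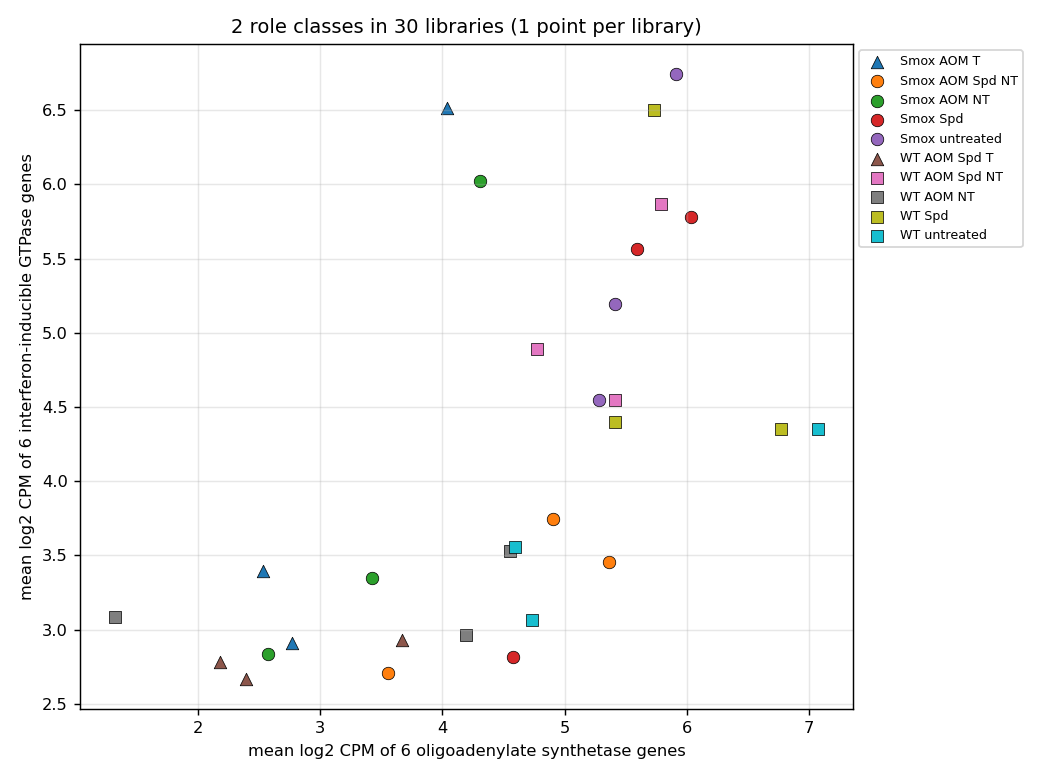
Mean log2 CPM of the 6 OAS genes (horizontal axis) and of the 6 GTPase genes (vertical axis), 1 point per library, coloured by group. The libraries with the highest OAS means, 7.07 and 6.77, have a GTPase mean of 4.35, and those with the highest GTPase means, 6.74, 6.52 and 6.50, are others.

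The first question was how spermidine given during AOM-DSS acted on these genes in non-tumor colon of either genotype. In Smox colon 24 of the 39 genes were higher and 15 lower with spermidine, and in WT colon all 39 were higher. None of these differences passed the test. The edgeR quasi-likelihood test, at a Benjamini-Hochberg adjusted p under 0.05, called 0 of the 39 genes in Smox, where it called 0% of all genes, and 0 in WT, where it also called 0% of all genes. At an unadjusted p under 0.05 the counts were 3 of the 39 genes in Smox and 18 in WT, and 2676 of all genes in Smox and 1109 in WT. The WT count of 18 was 3 without replicate 1 of WT AOM Spd NT and 12 without replicate 3 of that group. It was 4, 9 and 23 without replicates 1, 2 and 3 of WT AOM NT. The Smox count of 3 was 1 without replicate 3 of Smox AOM Spd NT. DESeq2 called 0 of the 39 genes in Smox, with 2.16% of all genes called, and 0 in WT, with 0.223% of all genes called. The median log2 change of the 39 genes was 0.32 in Smox, with 0.00 over all genes, and 1.41 in WT, with -0.03 over all genes.

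In Smox colon the direction with spermidine differed by role. All 6 OAS genes were higher (median log2 change 0.75) and all 6 GTPases were lower (median -1.18, range -3.46 to -0.47). Oas2, whose product makes the RNase L activator, had 2.75, 9.65 and 12.1 CPM in Smox AOM Spd NT, against 0.714, 1.12 and 1.83 CPM in Smox AOM NT. The groups did not overlap, and the log2 change was 2.74 ± 1.16 (SE; adjusted p = 0.313, edgeR). Oas3, the longest of these synthetases, had 5.30, 14.7 and 34.8 CPM with spermidine and 1.09, 2.52 and 7.11 CPM without it, a log2 change of 2.36 ± 1.01 (adjusted p = 0.319, edgeR), with overlap between the lowest treated library and the highest library without spermidine. Ddx58, which encodes the RNA sensor RIG-I, had 20.8, 18.6 and 22.8 CPM in Smox AOM Spd NT and 9.50, 12.2 and 17.0 CPM in Smox AOM NT. Its groups did not overlap, with a log2 change of 0.69 ± 0.42 (adjusted p = 0.461, edgeR). Oas2 and Ddx58 were the members without overlap on the higher side, 2 of 39, where 7.84% of all genes were of that kind. Irf7, the factor that amplifies type I interferon, had 38.6, 84.2 and 189.7 CPM with spermidine and 21.0, 52.6 and 75.4 CPM without it, with overlap (log2 change 1.07 ± 0.65, adjusted p = 0.459, edgeR). Usp18, the protease that removes Isg15 from proteins and damps the interferon receptor, had 4.95, 3.27 and 9.10 CPM with spermidine, against 1.24, 1.73 and 4.94 CPM without it (log2 change 1.14 ± 0.90, adjusted p = 0.577, edgeR). Isg15 had 4.70, 12.0 and 17.9 CPM with spermidine, against 2.31, 4.86 and 12.5 CPM without it. Both of these genes overlapped between the groups. In Oas2, Oas3, Irf7, Usp18 and Isg15 the highest value with spermidine was that of replicate 3 of Smox AOM Spd NT. That library had 67.3 CPM of distal hindgut position genes, against 337 and 591 CPM in the other replicates. Its epithelial markers summed to 30781 CPM, against 11553 and 15161 CPM. The part of tissue position in these levels was not tested.

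Among the genes that were lower with spermidine in Smox colon, a single library set much of the difference. Iigp1, a GTPase that attacks parasite vacuoles, had 1.18, 3.14 and 3.71 CPM in Smox AOM Spd NT, against 3.96, 4.35 and 80.0 CPM in Smox AOM NT. Its log2 change was -3.46 ± 1.52 (adjusted p = 0.326, edgeR), the groups did not overlap, and the high value was that of replicate 3. Gbp2 had 10.3, 22.4 and 11.2 CPM with spermidine and 8.89, 16.5 and 98.9 CPM without it, with overlap and a log2 change of -1.50 ± 1.01. Ido1, which degrades tryptophan and answers strongly to interferon-gamma, had 2.13, 1.86 and 4.02 CPM with spermidine, against 2.23, 1.92 and 42.7 CPM without it (log2 change -2.55 ± 1.39). Ifit2, which binds viral RNA, had 9.78, 4.27 and 21.3 CPM with spermidine and 4.38, 20.7 and 96.0 CPM without it (log2 change -1.78 ± 0.97). In all of these genes replicate 3 of Smox AOM NT was by far the highest. Without that library 37 of the 39 genes were higher with spermidine, the median log2 change was 0.79, and that of the GTPases 0.49. Gbp2 was then at 0.25, Ido1 at 0.41 and Iigp1 at -0.59. Leaving out replicate 3 of Smox AOM Spd NT gave 20 higher genes and a median of 0.03, and leaving out replicate 1 of that group gave 28 and 0.61.

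In WT colon every role leaned the same way. With spermidine the median log2 change was 2.48 in the 3 genes of the Isg15 conjugation group, 2.04 in the 6 GTPases, 1.59 in the 9 other antiviral effectors, 1.48 in the 6 OAS genes, 1.12 in the 4 sensors and 0.73 in the 4 transcription factors. The libraries with and without spermidine did not overlap in 30 of the 39 genes, all 6 GTPases among them, where 5.84% of all genes were higher without overlap. Isg15 had 53.7, 18.6 and 35.0 CPM in WT AOM Spd NT, against 1.40, 6.63 and 7.93 CPM in WT AOM NT. The groups did not overlap, and the fold was 6.72 (log2 change 2.75 ± 0.93, adjusted p = 0.850, edgeR's quasi-likelihood test).

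Other effector genes in WT colon had the same layout. Cmpk2, a nucleotide kinase next to Rsad2 on chromosome 12, had 29.7, 15.2 and 20.7 CPM with spermidine, against 4.03, 7.48 and 9.44 CPM without it. The log2 change was 1.65 ± 0.54 (adjusted p = 0.850, edgeR), with no overlap. Oasl2, a ubiquitin-like member of the OAS family, had 146, 62.0 and 109.8 CPM with spermidine, against 2.78, 28.5 and 36.7 CPM without it. The lowest treated library was above the highest library without spermidine, and the log2 change was 2.23 ± 0.95. Dhx58, which encodes the RNA sensor LGP2, had 34.5, 17.6 and 28.5 CPM, against 8.36, 12.1 and 11.4 CPM in WT AOM NT, with no overlap and a log2 change of 1.34 ± 0.47. Gbp3 had 31.8, 11.9 and 14.6 CPM with spermidine and 3.09, 3.75 and 4.72 CPM without it (log2 change 2.34 ± 0.90). Trim30a, a regulator of inflammatory signalling, had 27.1, 13.7 and 23.1 CPM, against 4.08, 7.55 and 9.34 CPM without spermidine (log2 change 1.61 ± 0.63). All of these were separated by group but had adjusted p values of at least 0.850. Ifi44 had the widest difference, 15.4, 3.93 and 7.94 CPM with spermidine and 0.0698, 1.94 and 1.56 CPM without it (log2 change 2.94 ± 1.24).

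The narrowest difference in WT colon was that of Irf1, a factor induced early by interferon-gamma. It had 230.1, 251 and 182 CPM with spermidine and 85.0, 201 and 281 CPM without it, and these groups overlapped (log2 change 0.23 ± 0.48). Irf9, the DNA-binding part of the ISRE complex, had 60.4, 49.9 and 46.4 CPM, against 18.05, 39.9 and 40.1 CPM without spermidine (log2 change 0.68 ± 0.36). Its libraries with spermidine all lay above those without it. Leaving out each library of these groups in turn gave medians of the 39 genes between 1.07 and 1.87, with 38 or 39 genes higher.

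**Figure D3:**
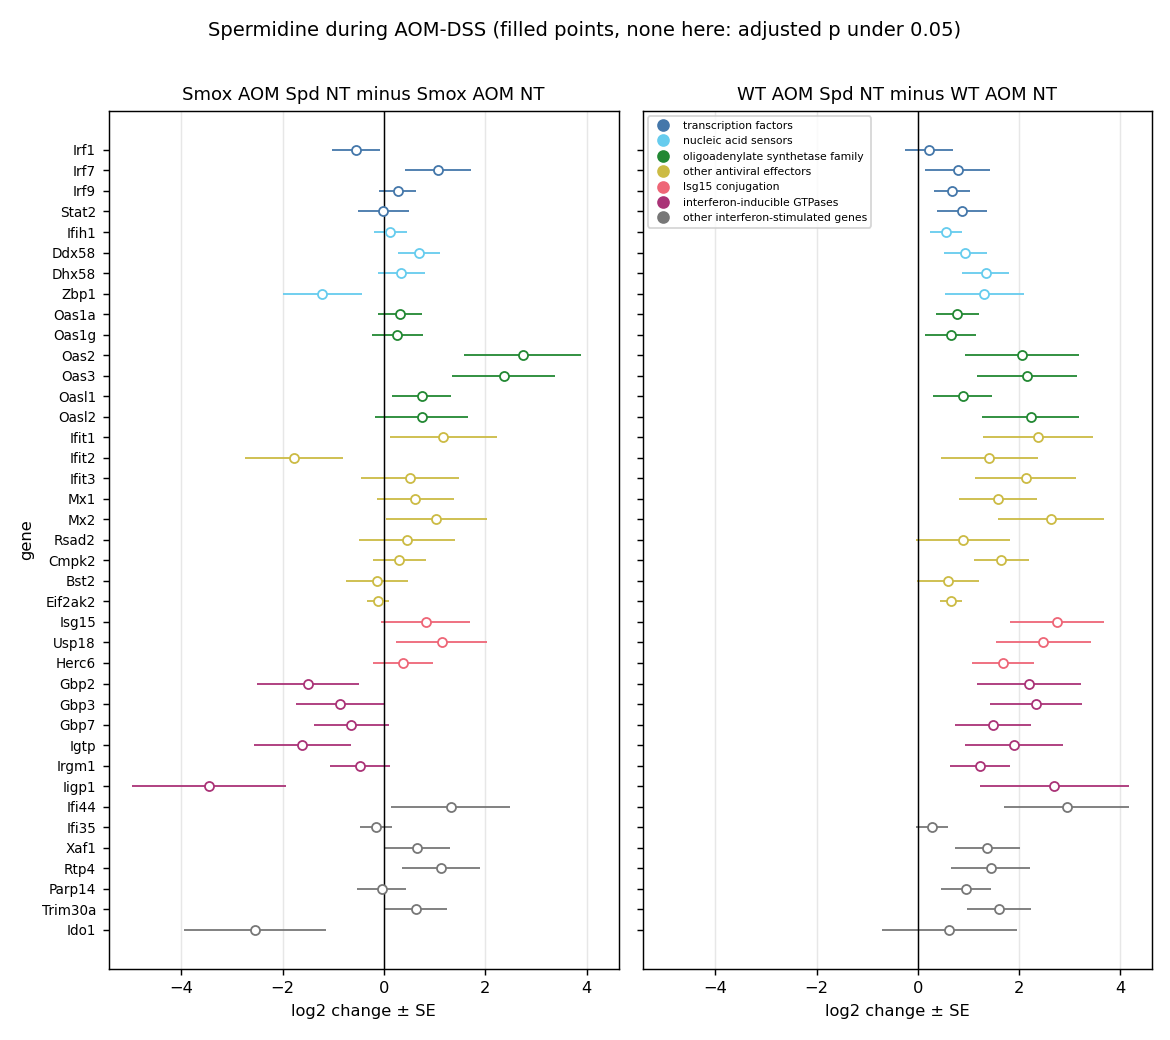
Log2 change with spermidine during AOM-DSS for each of the 39 genes, Smox colon on the left and WT colon on the right, with SE bars; open points have an adjusted p of 0.05 or more, which holds for all. In Smox the GTPases are left of 0, down to -3.46, and in WT all 39 genes are right of 0, up to 2.94.

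The responses of the genotypes to spermidine during AOM-DSS were then compared with each other, as an interaction term. It was lower in Smox than in WT for 36 of the 39 genes, with a median difference of -1.0 on the log2 scale and a range of -6.16 to 0.67. Oas2 (0.67 ± 1.54), Irf7 (0.28 ± 0.90) and Oas3 (0.20 ± 1.36) were the exceptions. The test called 0 of the 39 genes (edgeR, with 0% of all genes called, and 820 of them at an unadjusted p under 0.05), and DESeq2 also called 0 of the 39, with 0.339% of all genes called. At an unadjusted p under 0.05 there were 7 genes, which were Iigp1, Gbp2, Gbp3, Igtp, Ifit2, Zbp1 and Eif2ak2. That count was 0 without replicate 3 of Smox AOM NT, 2 without replicate 1 of WT AOM Spd NT and 4 without replicate 1 of WT AOM NT. The 6 GTPases had a median difference of -3.36, with -6.16 ± 2.11 for Iigp1 (adjusted p = 1, edgeR), while the 6 OAS genes had a median of -0.27. The median over the 39 genes was -0.43 without replicate 3 of Smox AOM NT and -0.63 without replicate 1 of WT AOM NT.

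**Figure D4:**
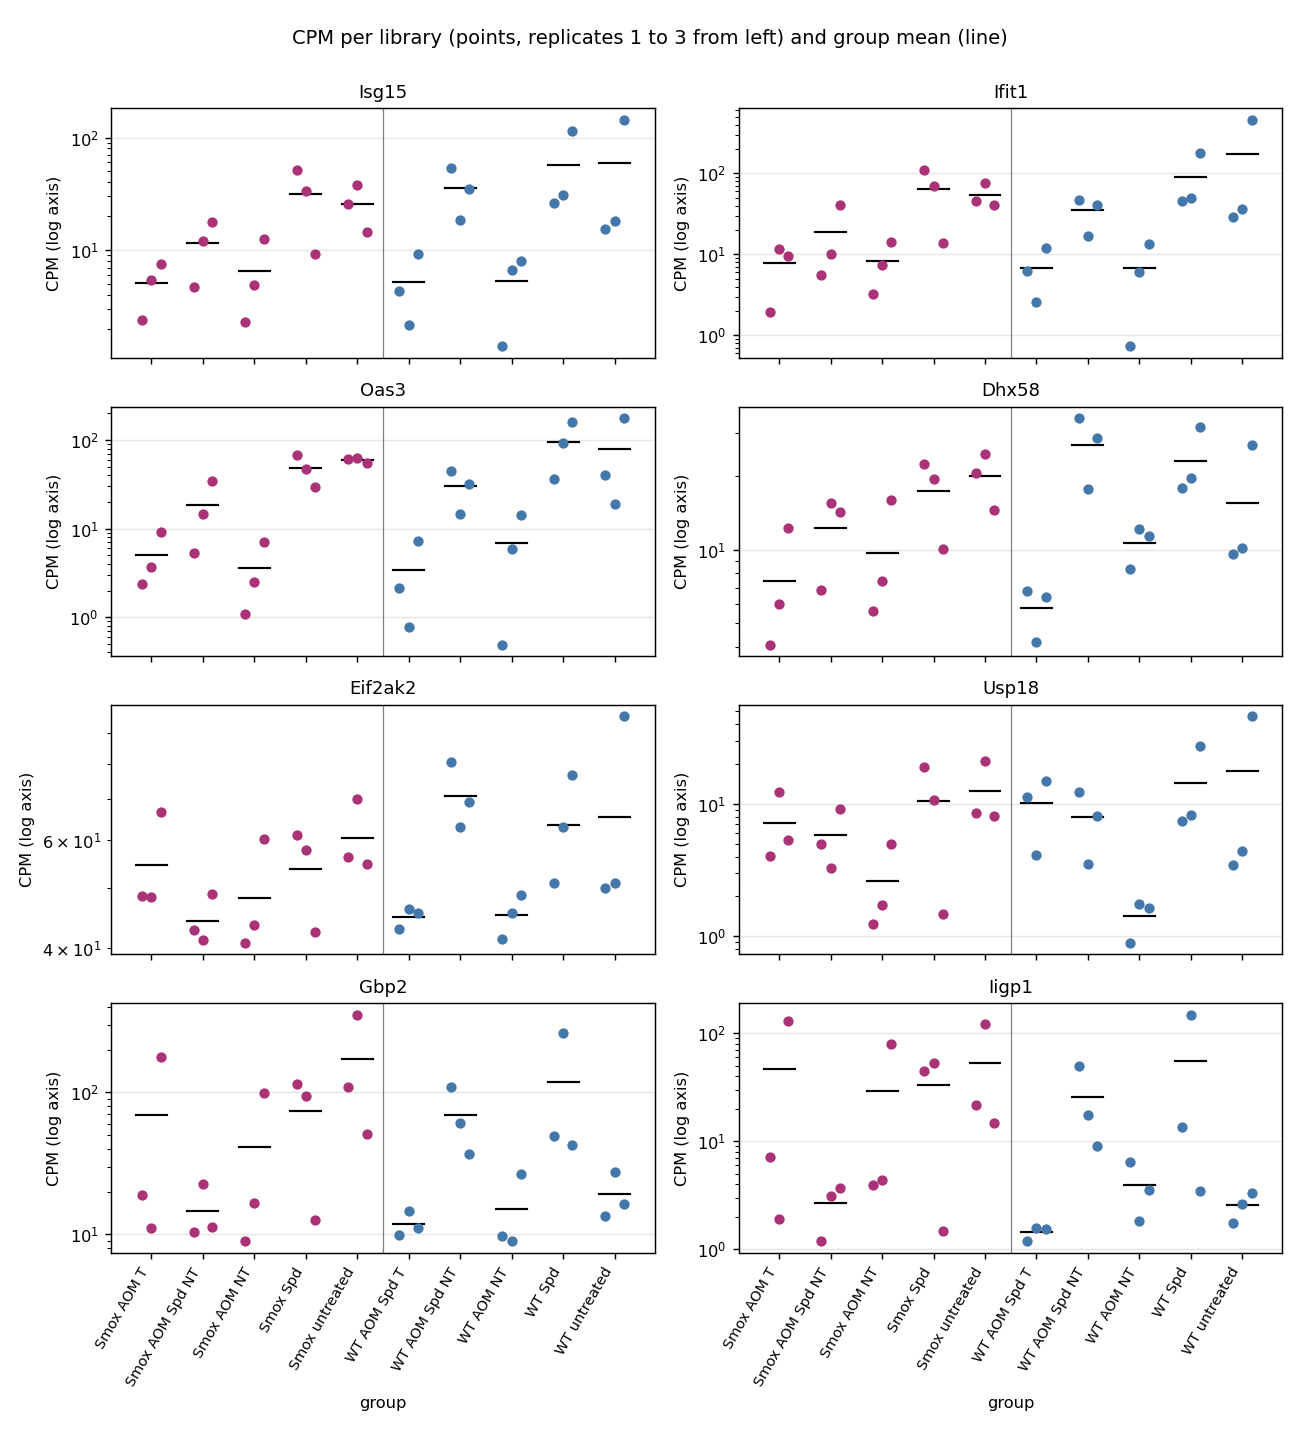
CPM per library (log axis) of Isg15, Ifit1, Oas3, Dhx58, Eif2ak2, Usp18, Gbp2 and Iigp1 in the 10 groups, Smox groups in purple and WT groups in blue, with a line at each group's mean. Isg15 is at 53.7, 18.6 and 35.0 CPM in WT AOM Spd NT, against 1.40, 6.63 and 7.93 CPM in WT AOM NT, and Iigp1 reaches 80.0 CPM in a single Smox AOM NT library.

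Genes of the same pathway were read beside the 39. With spermidine during AOM-DSS, 22 of 36 further interferon-stimulated genes were higher in Smox (median log2 change 0.13) and 33 of 36 in WT (median 0.50). Of 25 genes associated with interferon-gamma, such as those of antigen presentation, 0 were higher in Smox (median -1.39) and 22 in WT (median 0.49). The Smox values include replicate 3 of Smox AOM NT, and the list was not read without that library. Leaving it out took the median of the 6 GTPases in Smox from -1.18 to 0.49. The interferon receptor genes were higher for 1 of 6 in Smox and 2 of 6 in WT. None of these lists had a called gene in either genotype. Summed T and NK cell markers were at 9.07, 9.11 and 19.4 CPM in Smox AOM Spd NT, against 11.2, 10.7 and 24.9 CPM in Smox AOM NT, the last being the replicate with the high GTPases. In WT the same sum was 6.09, 8.65 and 5.08 CPM with spermidine and 7.73, 7.87 and 8.74 CPM without it, with 1 of 11 markers higher. The 5 leukocyte markers summed to 32.1, 97.1 and 17.9 CPM in WT AOM Spd NT, against 48.1, 79.1 and 79.4 CPM in WT AOM NT, and none was higher with spermidine. In WT, distal hindgut position genes summed to 797, 743 and 957 CPM with spermidine and 651, 482 and 547 CPM without it, higher in 6 of 6 genes with none called. In Smox they summed to 337, 591 and 67.3 CPM with spermidine and 223, 236 and 326 CPM without it. There 4 of 6 were higher (median log2 change 0.62), with none called.

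B and plasma cell and neutrophil markers were lower with spermidine. The B and plasma cell markers summed to 273, 42.0 and 215 CPM in Smox AOM Spd NT, against 2066, 3616 and 1839 CPM in Smox AOM NT (median log2 change -3.67). In WT they summed to 111, 357 and 37.8 CPM with spermidine and 487, 478 and 731 CPM without it (median -0.95). All 6 of these markers were lower with spermidine in both genotypes, and the sums did not overlap. Neutrophil markers summed to 88.2, 79.6 and 23.8 CPM in Smox AOM Spd NT, against 294, 119.6 and 117 CPM in Smox AOM NT. In WT their sums were 119, 134 and 111 CPM with spermidine and 193, 119.8 and 235 CPM without it. In replicate 2 of Smox AOM Spd NT 2 of the 6 markers had no counts, and in replicate 3, with the lower sum, all had counts. These sums, here and below, are therefore not a measure of neutrophil number. All 6 neutrophil markers were lower with spermidine in Smox (median -1.58) and in WT (median -1.96), and no marker of either list was called. Other lists leaned lower with spermidine as well. Of 8 macrophage markers 0 were higher in Smox and 1 in WT, and of 5 endothelium markers 0 were in either genotype. In Smox 0 of 5 leukocyte markers were higher. Of 8 epithelial markers 3 were higher in each genotype, and of 6 squamous epithelium markers 5 in Smox and 1 in WT. The part of immune cells and of tissue position in the levels of the 39 genes was not tested.

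AOM-DSS alone was compared with untreated colon to see how the genes stood after colitis. They were mostly lower: 37 of the 39 in Smox (median log2 change -1.04, with 0.01 over all genes) and 37 in WT (median -1.0, with 0.00 over all genes). In Smox 0 of the 39 genes were called by edgeR (0.0767% of all genes were). At an unadjusted p under 0.05 there were 15 of the 39, and 2533 of the 19558 genes tested. The 15 became 2 without replicate 1 of Smox AOM NT and 29 without its replicate 3. Groups were lower without overlap in 20 of the 39 genes, where 12% of all genes were. DESeq2 called 1, Oas3, with 2.55% of all genes called. Oas3 had 1.09, 2.52 and 7.11 CPM in Smox AOM NT, against 61.6, 62.6 and 55.6 CPM in Smox untreated. The groups were far apart (log2 change -4.07 ± 1.08, adjusted p = 0.109 by edgeR and 0.00204 by DESeq2). Irf7 had 21.0, 52.6 and 75.4 CPM in Smox AOM NT and 244, 192 and 194 CPM in Smox untreated. These groups did not overlap, with a log2 change of -2.08 ± 0.66 (adjusted p = 0.183, edgeR). Leaving out each library in turn gave medians of -0.77 to -1.99 over the 39 genes, the largest drop being without replicate 3 of Smox AOM NT. Distal hindgut position genes summed to 223, 236 and 326 CPM in Smox AOM NT, against 515, 285 and 251 CPM in Smox untreated. Of these, 2 of 6 were higher after AOM-DSS (median log2 change -4.56) and 1 was called lower. The part of tissue position in the levels of the 39 genes was not tested.

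In WT, 8 of the 39 genes fell after AOM-DSS and 0 rose, where 4.68% of all genes fell and 6.44% were called in either direction. DESeq2 called 13, all lower, with 13% of all genes called. The 8 were Ifit1, Ifit3, Mx2, Cmpk2, Usp18, Isg15, Irf7 and Oas3, and no sensor or GTPase was called. Ifit1, which binds viral RNA without the host's cap, had 0.733, 6.11 and 13.4 CPM in WT AOM NT, against 29.0, 36.2 and 461 CPM in WT untreated. The groups did not overlap, and the highest value was in replicate 3 of WT untreated (log2 change -4.70 ± 1.21, adjusted p = 0.0293, edgeR). Usp18 had 0.890, 1.74 and 1.64 CPM, against 3.44, 4.37 and 45.6 CPM in WT untreated. Its log2 change was -3.64 ± 0.99 (adjusted p = 0.0347, edgeR), again with no overlap. Isg15 had 1.40, 6.63 and 7.93 CPM in WT AOM NT and 15.3, 18.003 and 144 CPM in WT untreated (log2 change -3.47 ± 0.95, adjusted p = 0.0363, edgeR). In all 3 genes replicate 3 of WT untreated, the library of that group with the high skeletal muscle markers, was the highest. Groups were lower without overlap in 14 of the 39 genes, where 13.5% of all genes were.

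The other genes that fell in WT had the same high library. Cmpk2 had 4.03, 7.48 and 9.44 CPM in WT AOM NT, against 11.5, 17.8 and 57.4 CPM in WT untreated (log2 change -2.05 ± 0.54, adjusted p = 0.0325, edgeR). Irf7 had 12.6, 70.1 and 111 CPM after AOM-DSS and 176, 132 and 659.7 CPM in WT untreated (log2 change -2.32 ± 0.67, adjusted p = 0.0434, edgeR). Oas3 had 0.489, 5.88 and 14.2 CPM, against 40.1, 18.7 and 177 CPM in WT untreated (log2 change -3.52 ± 1.05, adjusted p = 0.0474, edgeR). None of these 3 genes overlapped between the groups. Mx2, which GENCODE lists as a polymorphic pseudogene, had 0.140, 0.279 and 0.489 CPM, against 0.791, 0.860 and 15.3 CPM (log2 change -4.21 ± 1.11, adjusted p = 0.0314, edgeR). Ifit3, a partner of Ifit1, had 0.943, 4.06 and 5.17 CPM after AOM-DSS and 5.48, 11.1 and 105 CPM in WT untreated (log2 change -3.57 ± 1.06, adjusted p = 0.0466, edgeR). Their groups did not overlap either. Among other genes of the pathway, 2 of 36 further interferon-stimulated genes fell, a share near the 4.68% of all genes that did. They were Apol9b (log2 change -4.25 ± 1.09, adjusted p = 0.0293, edgeR) and Apol9a (-3.67 ± 1.11, adjusted p = 0.0498). The receptor kinase gene Jak1 rose (0.43 ± 0.12) and Pias1, a SUMO ligase listed among the negative regulators, fell (-0.42 ± 0.12).

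Markers of other cell types differed in the same comparison in WT. Skeletal muscle markers summed to 9.13, 4.19 and 14.7 CPM after AOM-DSS, against 28.9, 35.7 and 6732 CPM in WT untreated, with 5 of 6 called lower. Neutrophil markers summed to 193, 119.8 and 235 CPM after AOM-DSS and 50.1, 127 and 1.27 CPM in WT untreated, with 3 of 6 called higher. Of these markers, 2 had no counts in replicate 1 of WT untreated and 2 in its replicate 2. All had counts in its replicate 3, which had the lowest sum. All 5 leukocyte markers and all 8 macrophage markers were higher after AOM-DSS, with none called, as were all 6 B and plasma cell markers. The part of these shifts in the levels of the 39 genes was not tested.

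These calls in WT rested on single libraries. Without replicate 3 of WT untreated 0 of the 39 genes were called, the median log2 change was -0.19, Ifit1 was at -2.20 (adjusted p = 0.314, edgeR) and Isg15 at -1.58 (adjusted p = 0.389). The count was also 0 without replicate 1 or 2 of WT AOM NT and 3 without replicate 3 of that group.

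AOM-DSS was further compared on a background of spermidine. In Smox all 39 genes were lower than with spermidine alone (median log2 change -0.88). Of the 39, 0 were called by edgeR (0.0205% of all genes) and 0 by DESeq2 (3.74% of all genes). At an unadjusted p under 0.05 there were 4 of the 39 (0 to 8 with each library left out), and 3193 of the 19558 genes tested. In WT 29 of the 39 were lower (median -0.25), with 0 called by edgeR (1.91% of all genes) and 0 by DESeq2 (6.13% of all genes). At an unadjusted p under 0.05 there was 1 of the 39, and 3805 of all genes. The medians moved with single libraries, to -0.44 in Smox without replicate 1 of Smox Spd and to -0.01 in WT without replicate 3 of WT Spd. Replicate 1 of Smox Spd was the library of its group with high skeletal muscle, leukocyte, T and NK cell markers. The part of those cells in the levels of the 39 genes was not tested.

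Spermidine without AOM-DSS gave little that exceeded the spread. In Smox 17 of the 39 genes were higher (median log2 change -0.05), with 0 called by edgeR (0% of all genes) and 0 by DESeq2 (0.223% of all genes). At an unadjusted p under 0.05 there were 0 of the 39, and 1825 of the 19558 genes tested. In WT 26 were higher (median 0.20), with 0 called by edgeR (0.00511% of all genes). At an unadjusted p under 0.05 there were 2 of the 39 (10 without replicate 3 of WT untreated), and 3152 of all genes. DESeq2 called 1 of the 39, with 4.97% of all genes called. That gene was Iigp1, with 13.5, 149 and 3.48 CPM in WT Spd, against 1.77, 2.65 and 3.31 CPM in WT untreated. Its groups were separated by a small gap at the low end and a single high library at the other (log2 change 4.42 ± 1.58, adjusted p = 0.177 by edgeR and 0.0256 by DESeq2). Isg15 had 26.2, 30.9 and 113 CPM in WT Spd and 15.3, 18.003 and 144 CPM in WT untreated, which overlapped. All 39 genes were higher with spermidine in WT once replicate 3 of WT untreated was left out, with a median of 1.27 and still 0 called.

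Smox and WT colon were then compared under each treatment. After AOM-DSS with spermidine, 38 of the 39 genes were lower in Smox (median log2 change -0.89, with 0.05 over all genes). None was called by edgeR (0.251% of all genes were), and DESeq2 also called 0 (4.11% of all genes). At an unadjusted p under 0.05 there were 6 of the 39, and 2773 of the 19558 genes tested. The 6 became 1 without replicate 1 of Smox AOM Spd NT and 2 without replicate 1 of WT AOM Spd NT. Groups were lower without overlap in 16 of the 39 genes, where 8.15% of all genes were, and the 16 took in all 6 GTPases (median -1.71). Eif2ak2, the kinase PKR that stops translation on viral RNA, had 42.7, 41.1 and 49.0 CPM in Smox AOM Spd NT, against 80.4, 63.0 and 69.3 CPM in WT AOM Spd NT. These tight groups did not overlap (log2 change -0.68 ± 0.22, adjusted p = 0.149, edgeR). Herc6, the main ligase for Isg15 in the mouse, had 3.03, 6.28 and 6.99 CPM in Smox and 20.9, 11.03 and 21.1 CPM in WT (log2 change -1.70 ± 0.60, adjusted p = 0.192, edgeR), with no overlap. The median of the 39 genes was -0.54 without replicate 1 of WT AOM Spd NT and -0.62 without replicate 1 of Smox AOM Spd NT. Distal hindgut position genes summed to 337, 591 and 67.3 CPM in Smox AOM Spd NT, against 797, 743 and 957 CPM in WT AOM Spd NT. Of these, 0 of 6 were higher in Smox (median log2 change -4.10) and 1 was called lower. The part of tissue position in the levels of the 39 genes was not tested.

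After AOM-DSS alone, 26 of the 39 genes were higher in Smox than in WT (median 0.27). Of the 39, 0 were called by edgeR (0.0665% of all genes) and 0 by DESeq2 (0.588% of all genes). At an unadjusted p under 0.05 there were 0 of the 39, and 1640 of the 19558 genes tested. All 6 GTPases were on the higher side (median 1.45), with replicate 3 of Smox AOM NT the highest. Without that library 5 of the 39 genes were higher and the median was -0.40, and without replicate 1 of WT AOM NT 14 were and the median was -0.16. Of the distal hindgut position genes 1 of 6 was higher in Smox (median log2 change -3.01), with 0 called. With spermidine alone, 6 genes were higher and 33 lower in Smox (median -0.35), with 0 called by edgeR (0.0818% of all genes) and 0 by DESeq2 (1.19% of all genes). At an unadjusted p under 0.05 there were 0 of the 39, and 1882 of all genes. That median was -0.01 without replicate 3 of Smox Spd.

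In untreated colon 17 of the 39 genes were higher in Smox and 22 lower (median -0.12). None was called by edgeR (5.95% of all genes were). At an unadjusted p under 0.05 there were 4 of the 39, and 4737 of the 19558 genes tested. The 4 became 0 without replicate 2 of Smox untreated and 8 without replicate 3 of WT untreated. DESeq2 called 3, all higher in Smox, with 13.1% of all genes called. Those 3 were Gbp2, Iigp1 and Ido1. Gbp2 had 110.0, 353 and 50.9 CPM in Smox untreated, against 13.4, 27.5 and 16.4 CPM in WT untreated. All Smox libraries were above all WT ones (log2 change 3.16 ± 1.07, adjusted p = 0.0740, edgeR). Iigp1 had 21.6, 122 and 14.8 CPM in Smox and 1.77, 2.65 and 3.31 CPM in WT (log2 change 4.36 ± 1.58, adjusted p = 0.0907, edgeR). Replicate 2 of Smox untreated was the highest of its group for both, and it also had the highest Ifng, 0.817 CPM. All 25 genes associated with interferon-gamma were higher in Smox (median 1.45), and none was called. Immune markers were also higher in Smox, where T and NK cell sums were 25.9, 29.5 and 32.1 CPM, against 4.31, 4.05 and 16.4 CPM in WT untreated, with 0 of 11 called. Macrophage markers summed to 163, 244 and 139.9 CPM in Smox and 50.2, 89.0 and 60.2 CPM in WT, with 8 of 8 higher and 2 called. Of neutrophil markers 6 of 6 were higher and 3 called, of B and plasma cell markers 6 of 6 and 1, and of squamous epithelium markers 6 of 6 and 2. The part of these markers' cells in the levels of the 39 genes was not tested. Leaving out replicate 3 of WT untreated placed all 39 genes higher in Smox, with a median of 0.96 and 0 called. This comparison, AOM-DSS in WT and spermidine alone in WT share the WT untreated libraries.

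Tumors were compared with non-tumor colon of the same treatment. In Smox mice after AOM-DSS, 18 of the 39 genes were higher in tumors and 21 lower (median -0.05). Of the 39, 0 were called by edgeR (24.6% of all genes were) and 0 by DESeq2 (29.9% of all genes). At an unadjusted p under 0.05 there were 2 of the 39, and 7780 of the 19558 genes tested. Ddx58 had 23.4, 38.0 and 17.9 CPM in Smox AOM T, against 9.50, 12.2 and 17.0 CPM in Smox AOM NT. These groups did not overlap (log2 change 1.04 ± 0.42, adjusted p = 0.0712, edgeR). Oas1g had 6.76, 7.81 and 17.8 CPM in tumors and 15.7, 25.9 and 31.6 CPM in non-tumor colon, with overlap through replicate 3 (log2 change -1.18 ± 0.51, adjusted p = 0.0885, edgeR). With replicate 3 of Smox AOM T left out, the median of the 39 genes was -0.71 and 3 were called. Ddx58 then rose (log2 change 1.28, adjusted p = 0.0386, edgeR), and Oas1g (-1.72, adjusted p = 0.0284) and Irf1 (-1.38, adjusted p = 0.0407) fell. Without replicate 3 of Smox AOM NT, 34 genes were higher in tumors and the median was 0.66.

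In WT mice after AOM-DSS with spermidine, 19 of the 39 genes fell in tumors and 0 rose, where 17.5% of all genes fell and 34.4% were called in either direction. DESeq2 called 27, all lower, and it too called 34.4% of all genes. The median log2 change of the 39 genes was -1.94, with 0.01 over all genes, and 34 were lower without overlap, where 27.3% of all genes were. The fall took in 3 of 4 transcription factors, 2 of 4 sensors, 4 of 6 OAS genes, 3 of 9 other antiviral effectors, 2 of 3 genes of Isg15 conjugation, 2 of 6 GTPases and 3 of 7 others. The comparison uses the WT AOM Spd NT libraries that also stand in the spermidine comparison above.

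Ifih1, which encodes the RNA sensor MDA5, had 23.6, 35.4 and 33.1 CPM in WT AOM Spd T, against 109, 82.8 and 110.2 CPM in WT AOM Spd NT. It fell 3.28-fold (log2 change -1.71 ± 0.33, adjusted p = 0.000761, edgeR), with no overlap. Trim30a had 0.855, 2.24 and 2.69 CPM in tumors and 27.1, 13.7 and 23.1 CPM in non-tumor colon. Every tumor library was below every non-tumor library (log2 change -3.46 ± 0.68, adjusted p = 0.000928, edgeR). Oas1a had 21.0, 29.2 and 30.6 CPM in tumors and 126, 77.9 and 106 CPM in non-tumor colon (log2 change -1.94 ± 0.44, adjusted p = 0.00249, edgeR). Its neighbour Oas1g had 5.56, 9.70 and 10.9 CPM in tumors and 55.2, 37.2 and 48.5 CPM in non-tumor colon (log2 change -2.43 ± 0.53, adjusted p = 0.00183, edgeR). Dhx58 had 6.77, 4.19 and 6.40 CPM, against 34.5, 17.6 and 28.5 CPM in non-tumor colon (log2 change -2.21 ± 0.48, adjusted p = 0.00185, edgeR). All 5 of these genes were separated by group, and all 5 were called in each of the 12 alternative analyses.

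Stat2, the partner of Irf9 at the ISRE, had 20.5, 23.0 and 22.5 CPM in WT tumors, against 80.8, 57.5 and 59.6 CPM in non-tumor colon. The tumor libraries were close to each other and below all the rest (log2 change -1.59 ± 0.51, adjusted p = 0.0202, edgeR). Isg15 had 4.31, 2.16 and 9.19 CPM in tumors and 53.7, 18.6 and 35.0 CPM in non-tumor colon (log2 change -2.78 ± 0.93, adjusted p = 0.0245, edgeR). Eif2ak2 had 42.9, 46.2 and 45.6 CPM in tumors and 80.4, 63.0 and 69.3 CPM in non-tumor colon, the smallest fall among those called (log2 change -0.66 ± 0.22, adjusted p = 0.0217, edgeR). All 3 of these genes were separated by group.

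The remaining falls in WT tumors were spread over several roles. Oasl2 had 7.02, 7.85 and 21.7 CPM in tumors and 146, 62.0 and 109.8 CPM in non-tumor colon (log2 change -3.12 ± 0.99, adjusted p = 0.0190, edgeR). Oas3 had 2.15, 0.769 and 7.18 CPM in tumors and 44.6, 14.6 and 32.3 CPM in non-tumor colon (log2 change -3.17 ± 1.04, adjusted p = 0.0221, edgeR). Both had every tumor library below every non-tumor library. Mx1 had 0.510, 0.687 and 1.24 CPM in tumors and 8.98, 3.22 and 4.03 CPM in non-tumor colon (log2 change -2.73 ± 0.81, adjusted p = 0.0128, edgeR). Herc6 had 3.72, 3.45 and 5.96 CPM in tumors and 20.9, 11.03 and 21.1 CPM in non-tumor colon (log2 change -2.01 ± 0.61, adjusted p = 0.0148, edgeR). These too did not overlap. Irgm1, Rsad2, Rtp4, Irf1, Iigp1, Parp14 and Irf7 also fell, by log2 changes of -4.16 to -1.29. The genes that were not lower were Ddx58 (35.7, 18.6 and 29.98 CPM in tumors, against 25.9, 19.4 and 24.6 CPM) and Usp18 (11.2, 4.09 and 14.9 CPM in tumors, against 12.2, 3.50 and 8.13 CPM). Both overlapped and neither was called. The count of 19 was 5 without replicate 1 of WT AOM Spd T, 8 without replicate 2 of it, 6 without replicate 1 of WT AOM Spd NT and 12 without replicate 3 of that group.

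**Figure D5:**
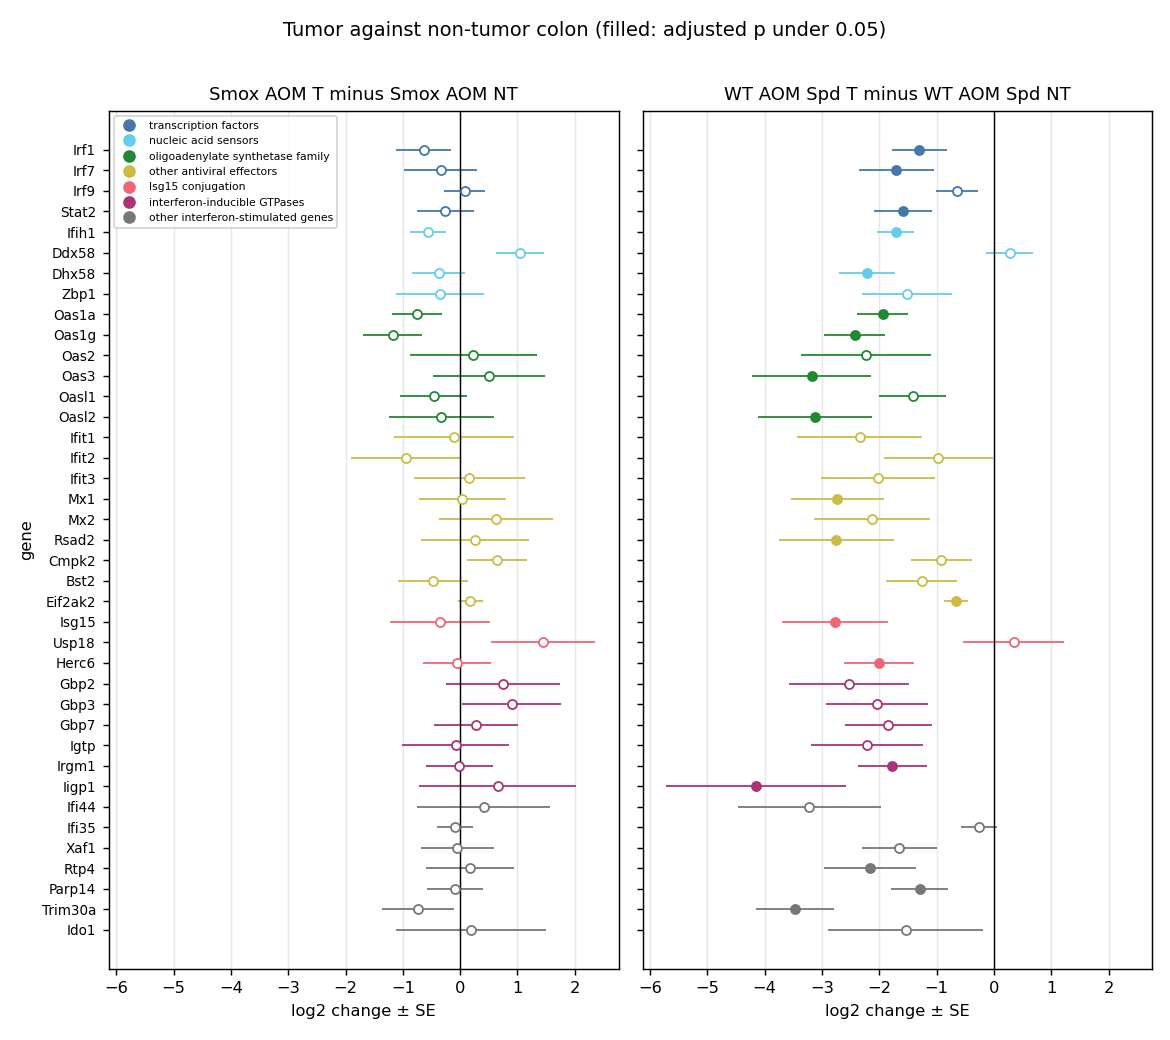
Log2 change of each of the 39 genes in tumor against non-tumor colon, with SE bars, Smox after AOM-DSS on the left and WT after AOM-DSS with spermidine on the right; filled points have an adjusted p under 0.05. In Smox no point is filled, and in WT 19 are filled, all left of 0, down to -4.16 for Iigp1.

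Other genes of the pathway were called in both directions in WT tumors, where 17.5% of all genes fell and 34.4% were called. Of 36 further interferon-stimulated genes 18 fell and 3 rose. Sp100, a nuclear body protein, fell, with 4.93, 6.94 and 5.88 CPM in tumors, against 52.7, 33.2 and 41.2 CPM in non-tumor colon. Ifitm2, which blocks virus entry, rose, with 261, 187 and 271 CPM in tumors, against 76.1, 62.9 and 76.1 CPM in non-tumor colon (log2 change 1.74 ± 0.33). Of the 6 receptor genes 2 rose and 1 fell. Ifnar1, a chain of the type I interferon receptor, had 68.7, 61.8 and 71.9 CPM in tumors, against 37.8, 37.5 and 40.1 CPM in non-tumor colon (log2 change 0.81 ± 0.16), and Ifnar2, the other chain, rose too (1.37 ± 0.34). Of 11 sensor and adaptor genes 6 fell and 1 rose. Mavs, the adaptor of the RNA sensors, had 24.3, 28.5 and 22.5 CPM in tumors, against 58.3, 62.1 and 84.5 CPM in non-tumor colon (log2 change -1.45 ± 0.17), and Ticam1, the adaptor of TLR3, fell too (-0.97 ± 0.21). Of 9 kinase and transcription factor genes 2 fell, Irf8 (-1.61 ± 0.36) and Irf2 (-1.04 ± 0.27). Of 5 negative regulators 2 rose, Socs3 (1.98 ± 0.66) and Ptpn2 (0.28 ± 0.11). The counts for the kinases and factors and for the negative regulators are near or within the share of all genes. Of 25 genes associated with interferon-gamma, fewer in share than of all genes were called, and Gbp9 rose (2.38 ± 0.71) and B2m, the light chain of MHC class I, fell (-1.83 ± 0.67).

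In Smox tumors, where 24.6% of all genes were called, 2 of 6 receptor genes, 1 of 9 kinase and factor genes and 0 of 25 genes associated with interferon-gamma were called. Of the 11 sensor and adaptor genes 2 rose and 3 fell, and of 36 further interferon-stimulated genes 2 rose. Apart from the sensors and adaptors, these counts are near or below the share of all genes. Tmem173, which encodes the DNA sensing adaptor STING, had 71.5, 86.5 and 47.2 CPM in Smox AOM T, against 13.8, 13.8 and 15.2 CPM in Smox AOM NT, and rose (log2 change 2.26 ± 0.61). Ifitm3 rose (2.37 ± 0.70), as did Ifitm2 (1.10 ± 0.33) and Ifnar1 (0.55 ± 0.16). Ticam1 (-0.76 ± 0.21), Irf8 (-1.06 ± 0.35) and Ifngr1, a chain of the interferon-gamma receptor (-0.78 ± 0.27), fell. All pathway genes said to rise or fall here had an adjusted p under 0.05 by edgeR.

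Cell type markers moved with the tumor comparison in WT. Summed epithelial markers were at 8163, 9744 and 7528 CPM in tumors, against 13646, 13793 and 15161 CPM in non-tumor colon, with 5 of 8 called lower. Smooth muscle markers were at 19.8, 83.5 and 46.6 CPM, against 948, 894 and 787 CPM, with 5 of 5 called lower. The list of plasmacytoid dendritic cell markers, which includes Irf8, was at 31.4, 47.0 and 32.0 CPM, against 125, 123 and 102 CPM. In it 2 of 5 were called lower, and Irf8 is 1 of them. Leukocyte markers were at 34.2, 42.1 and 49.8 CPM, against 32.1, 97.1 and 17.9 CPM, with 2 of 5 higher and 0 called. B and plasma cell markers were at 10.3, 88.4 and 19.4 CPM, against 111, 357 and 37.8 CPM, with 5 of 6 called lower. Macrophage markers were at 143, 176 and 168 CPM, against 132, 123 and 87.3 CPM, with 3 of 8 called higher. Neutrophil markers were at 169, 124 and 131 CPM, against 119, 134 and 111 CPM, with 4 of 6 called higher. The part of these shifts in the fall of the 39 genes was not tested. In Smox tumors, distal hindgut position genes were at 499.6, 487 and 581 CPM, against 223, 236 and 326 CPM in Smox AOM NT, with 4 of 6 called higher. Squamous epithelium markers were called higher for 3 of 6. Called lower were 3 of 6 B and plasma cell markers, 3 of 8 epithelial markers and 2 of 5 plasmacytoid dendritic cell markers, Irf8 among them.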

How the data were processed

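Total RNA of colon was sequenced on directional libraries, 3 mice per group per the labels and the series design. The authors deposited 1 table of estimated counts per gene (expected counts, whole numbers as deposited). Per the submitters' processing notes, fastp, Salmon and DESeq2 were used with build GRCm38, and their versions and settings are not given in the sources used here. Groups and columns were taken from the labels, which do not say whether tumor and non-tumor tissue shared a mouse.

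Of 31023 genes, 20430 have a deposited symbol, and joins used the identifier. The test was the quasi-likelihood test of edgeR 4.0.16 (R 4.3.3), after TMM scaling and filterByExpr (at least 10 counts in enough libraries, 15 in total), which left 19558 genes. All 30 libraries entered 1 model with a mean for each of the 10 groups, leaving 20 residual degrees of freedom. In each of 15 contrasts, Benjamini-Hochberg adjustment ran across every gene in the fit, with a threshold of 0.05. CPM divides a count by the TMM-scaled library size, and the heatmap adds 0.1 before the log. Fold changes are the model's, and each SE is the size of the log2 change divided by the square root of its quasi-likelihood F statistic. "Rose" and "fell" are used of genes past the threshold. Library totals spanned 33060607 to 81011304 counts. The procedure was tested on simulated data with 200 genes changed. The outcome is not reported here, and no result above rests on it.

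Exon lengths and locations come from GENCODE vM21 on GRCm38, and promoter sequences from RefSeq on GRCm38.p6. Full values are given for each called gene of the 39, up to 12 per contrast by p, for the gene of each role with the lowest p in the spermidine contrasts during AOM-DSS, and for up to 2 called genes of each pathway list. Irf1, Ifi44, Isg15 and Oas3 in those contrasts, and the genes named in comparisons without a call, were chosen after their values were seen. The alternatives were DESeq2 1.42.0 in place of edgeR, RLE in place of TMM, leaving the filter out or asking for 1 CPM in at least 3 libraries, fitting just the groups of a contrast, dropping each library in turn, and dropping both atypical libraries (replicate 3 of WT untreated and replicate 1 of Smox AOM Spd NT). The 39 genes, the pathway and marker lists and the atypical libraries were chosen with earlier results of these data known. Replicate 1 of Smox AOM Spd NT had 89.3 CPM of squamous epithelium markers, against 3.33 and 4.63 CPM in the other replicates. Other libraries with unlike marker sums, such as replicate 1 of Smox Spd and replicate 3 of Smox AOM Spd NT, were dropped only in turn.

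WT tumors after AOM-DSS alone, Smox tumors after AOM-DSS with spermidine, and the interferon genes Ifnb1, Ifnk, Ifnl2 and those of the alpha family were not analysed here.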

Additional observations from a re-analysis of the deposited data

Results flagged for a closer look

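Iigp1, a GTPase of the interferon-gamma response, had opposite directions with spermidine during AOM-DSS in the 2 genotypes, neither past the threshold. The log2 change was -3.46 in Smox colon, with 1.18, 3.14 and 3.71 CPM with spermidine, against 3.96, 4.35 and 80.0 CPM without it, and 2.70 in WT colon, with 50.3, 17.6 and 9.11 CPM with spermidine, against 6.46, 1.85 and 3.57 CPM without it. Each treated library lay beyond all libraries without spermidine, below them in Smox and above them in WT. As an interaction term, the difference between the genotypes was -6.16 ± 2.11 on the log2 scale (adjusted p = 1, edgeR). Without replicate 3 of Smox AOM NT the change in Smox was -0.59.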

How the results depend on the processing

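With spermidine during AOM-DSS, and in the difference between genotypes, 0 of the 39 genes were called under every alternative run. For AOM-DSS in WT (8 called) the count was 13 with DESeq2, 1 with no filter, 0 with only the groups compared, 0 without both atypical libraries and 0 to 9 with each library left out in turn. For tumors of WT mice (19 called) it was 12 with no filter, 33 with only the groups compared and 5 to 14 with each library left out. Where 0 were called, DESeq2 called 1 for AOM-DSS in Smox (Oas3), 1 for spermidine alone in WT (Iigp1) and 3 for Smox against WT in untreated colon. A model of only the groups compared called 1 for AOM-DSS in WT given spermidine (Irf7). For tumors of Smox mice the count was 0 to 3 with each library left out and 2 without both atypical libraries (Ddx58 rose and Oas1g fell). Of the named genes' changes under the alternatives, 334 kept their direction and side of the threshold and 73 kept their direction but were no longer past it. The 334 include genes of the spermidine contrasts that were not called to begin with. Each of the 8 genes called for AOM-DSS in WT lost its call in 6 or 7 of the 12 alternatives. Of the genes with full values for WT tumors, some kept it in all 12 and others lost it in 2 to 4. The log2 change of Ido1 with spermidine during AOM-DSS in Smox ranged from -3.08 to 0.41 with each library left out, and was above 0 without replicate 3 of Smox AOM NT. The causes of these shifts were not tested. No paired analysis was possible because the labels give no numbers or animals that tie samples across groups. Depth limits genes with few counts, such as Oas2, whose lowest count in a library was 3.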
